A study of Mus musculus with 6 samples.

Results

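The 36 genes described here encode the enzymes that remove hydrogen peroxide and superoxide in the cell, the enzymes that supply them with glutathione and NADPH, and the pair of proteins, NRF2 and KEAP1, that sets the transcription of many of them. They were taken by name from a deposited RNA-seq count table of 21878 genes, in which all 36 were found. The table covers 6 libraries of whole thyroid gland from female mice at 12 weeks of age, 3 from wild-type littermates (Thy-Tet1+/+) and 3 labelled Thy-Tet1-/-. In the latter, floxed Tet1 alleles were combined with a Cre recombinase directed to thyrocytes, so that the other cells of the gland kept the gene. The mouse strain was not given in the sources used here, and the comparison asks how the gland's peroxide defence genes differ between these genotypes.

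Thyrocytes make hydrogen peroxide on purpose: dual oxidases release it at the apical membrane, where it is used to couple iodine to thyroglobulin. Glutathione peroxidases, peroxiredoxins and catalase break down the peroxide that escapes, and glutathione reductase and thioredoxin reductases, fed by NADPH, restore the thiols spent in doing so. NRF2, encoded by Nfe2l2, is held back by KEAP1 and, when released, binds antioxidant response elements in front of genes such as Nqo1, Hmox1, Gclm, Srxn1 and Txnrd1.

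The core of that element, TGACNNNGC, was searched on both strands in RefSeq promoter windows of GRCm38.p6 that run from 250 bases before to 50 after a gene's start. Of 37 windows for 30 of the genes, 7 held a match, or 18.9%, against 12.4% of all 32851 windows. No window was given for 6 of the genes, Gclc, Gsr, Gsta4, Hmox1, Prdx6 and Sod3. The 7 matches are printed because they show where the letters of this core occur near an annotated start of genes whose levels follow. Capitals mark the core, on the strand on which it reads TGACNNNGC, with 8 flanking bases on either side.
Nfe2l2, chr2:75704887-75704911, minus strand: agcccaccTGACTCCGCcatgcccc
Srxn1, chr2:152105544-152105568, minus strand: tctcactcTGACCTAGCtgcccact
Gclm, chr3:122245415-122245439, minus strand: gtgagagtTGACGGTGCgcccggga
Prdx1, chr4:116685458-116685482, minus strand: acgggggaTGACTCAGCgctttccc
Txnrd1, chr10:82859106-82859130, minus strand: tgtcagaaTGACAAAGCaaaaatcc
Sod1, chr16:90220698-90220722, minus strand: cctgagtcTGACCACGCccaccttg
G6pdx, chrX:74428921-74428945, plus strand: gtgtgcttTGACTGAGCtgacccgc
The centre of the match lay 33 bases after the start in Srxn1, inside the gene. In the other 6 it lay before the annotated start of the gene in that window. The distance was 52 bases in Sod1, 53 in G6pdx, 88 in Txnrd1, 129 in Prdx1, 130 in Gclm and 236 in Nfe2l2. Txnrd1 has 3 windows, and its match belongs to a start that lies within the gene's span, downstream of the first. The match of Prdx1 also holds the AP-1 letters TGACTCA. A match describes letters only, and binding was not measured.

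The 6 libraries held 8867683 to 19950898 counts, of which thyroglobulin took 21.2% to 29.4%. Levels are given as CPM, a gene's count as its share of the library's total after TMM scaling (a correction of library totals), and 3 counts corresponded to 0.152 to 0.356 CPM. Tet1 itself was counted 48, 71 and 62 times in Thy-Tet1+/+ and 172, 162 and 241 times in the libraries labelled Thy-Tet1-/-, or 4.31 ± 1.21 against 10.4 ± 1.60 CPM (SD, n = 3 each), which goes against the label (log2 fold change 1.28, edgeR unadjusted p = 0.00248, adjusted p = 0.101). Tet1 met the limits used below, and its groups did not overlap. Over 16 other ways of processing it ran from 1.14 to 1.52 (relative to the median of all genes for the other scalings), with adjusted p from 0.0012 to 0.359. The table has 1 count a gene, so reads from an excised exon could not be separated, and the groups are therefore called by their labels. Follicular cell markers summed to 257203, 317168 and 289176 CPM in Thy-Tet1+/+ and to 208652, 239951 and 194068 CPM in the labelled Thy-Tet1-/- libraries, without overlap. Thyroglobulin gave 98.2% to 98.9% of each sum, and of the 10 markers 3 met the limits used below as lower and 1 as higher. The other markers summed to 3501 to 4506 CPM and 3176 to 3497 CPM. Skeletal muscle markers ran from 929 to 7456 CPM and from 18.6 to 8273 CPM, parathyroid markers from 192 to 31340 CPM and from 10625 to 21635 CPM. Cortical thymocyte genes, a list added after the data were seen, summed to 75.1 CPM in Thy-Tet1+/+ replicate 1 and 323 CPM in labelled Thy-Tet1-/- replicate 3 and to at most 0.481 CPM in the others. In whole glands, fewer cells of a type and less RNA per cell cannot be told apart.

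Across the 35 genes that passed the low-count filter (Slc7a11 did not), 2 fell and 0 rose in the labelled Thy-Tet1-/- libraries. To meet the limits a gene had to change by more than 1.5-fold, up or down, and reach an unadjusted p under 0.05 in edgeR's quasi-likelihood test. The pair that fell was Gpx2, an intestinal-type glutathione peroxidase, and Srxn1, the sulfiredoxin that repairs overoxidised peroxiredoxins. They make up 5.71% of the 35, where 9.2% of all 14143 tested genes met the limits, 5.54% upward and 3.66% downward. An unadjusted p under 0.05 was reached by 3 of the 35, against 18.9% of all genes, and a Benjamini-Hochberg adjusted p under 0.05 by 0, against 0.113%. With DESeq2, the adjusted p was under 0.05 for 2 of the 35, Gpx2 and Prdx6, against 1192 of all 14143 tested genes.

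By sign alone, 24 of the 35 genes were lower and 11 higher, with a median log2 fold change of -0.16, while 49.9% of all genes were lower. The split depended on scaling, with 15 lower under plain library totals and 5 lower after scaling to 10 epithelial genes, which raised the median of all genes by 0.19 and 0.51 on the log2 scale. Taken relative to that shift, 0 of the 35 changed sign under either scaling. The groups did not overlap for 2 genes with higher values, Prdx6 and Gstm1, where 12.5% of all genes did so, and for 4 with lower values after TMM scaling, Gpx2, Srxn1, Gclm and Keap1, where 14.3% did so.

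**Figure D1:**
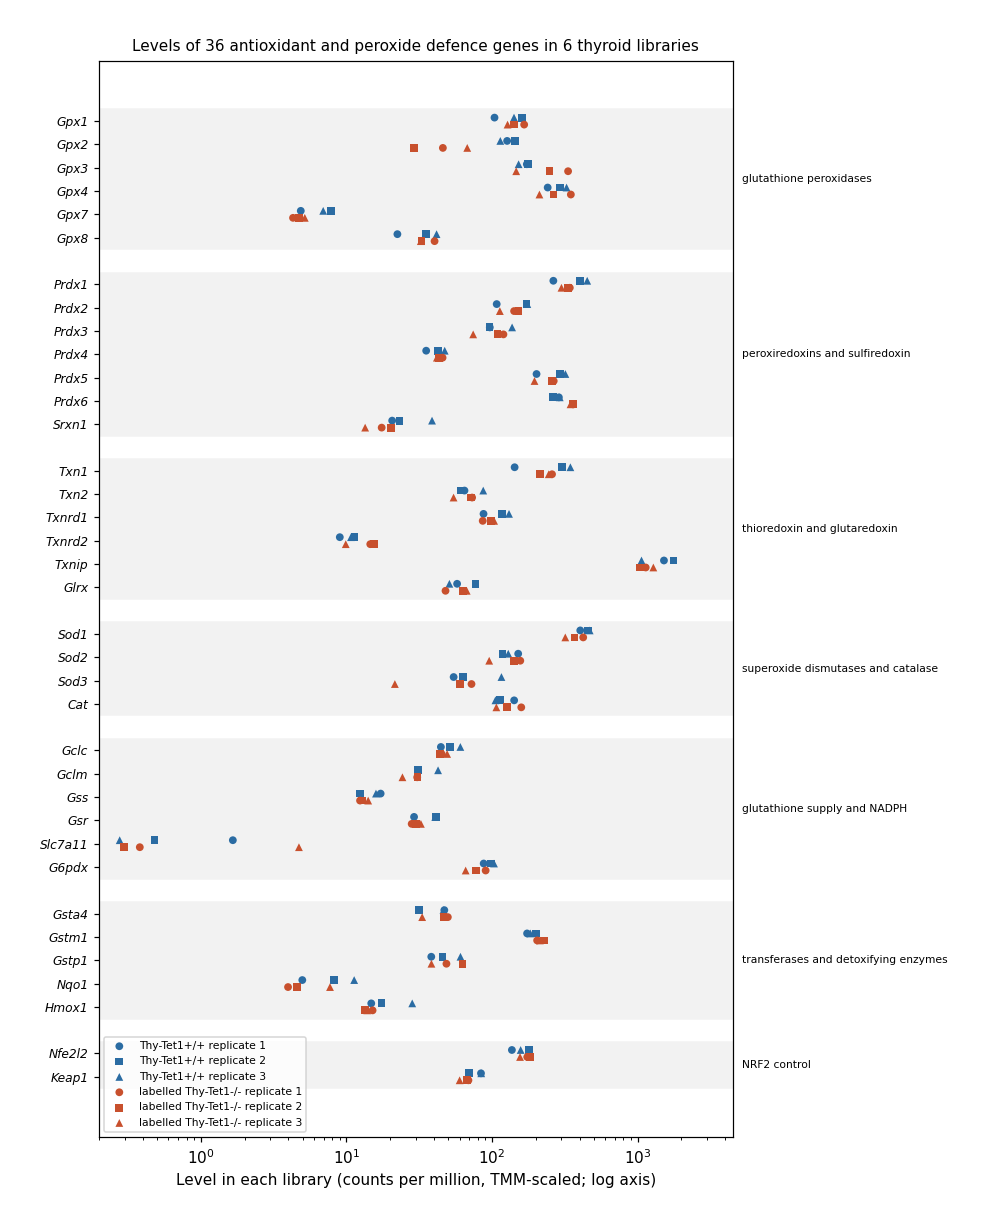
Level of each of the 36 genes in each of the 6 libraries, in TMM-scaled CPM on a log axis, with blue for Thy-Tet1+/+ and orange for labelled Thy-Tet1-/-, the marker shape giving the replicate, and grey bands the roles. Gpx2 is the gene whose groups stand farthest apart, with 114 to 145 CPM against 29.0 to 67.7 CPM, and most other rows overlap.

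The glutathione peroxidases reduce peroxides with glutathione, and Gpx1 to Gpx4 do so with a selenocysteine. Their 6 genes had 3 higher and 3 lower values (1 lower with epithelial scaling) and a median log2 fold change of 0.01. Gpx2, NCBI gene 14776 at chr12:76792335-76795554 (mm10), had 127, 145 and 114 CPM in Thy-Tet1+/+ replicates 1 to 3 and 46.0, 29.0 and 67.7 CPM in the labelled Thy-Tet1-/- replicates 1 to 3. All 3 labelled Thy-Tet1-/- libraries lay below the lowest wild-type one. Means were 129 ± 15.3 and 47.6 ± 19.4 CPM (SD, n = 3 each), a 2.7-fold difference with a log2 fold change of -1.43 ± 0.30 (SE), unadjusted p = 0.00202 and edgeR adjusted p = 0.0988. It met the limits under all 16 other ways of processing, from -1.96 to -1.19 (relative to the median of all genes for the other scalings; -0.92 unshifted with epithelial scaling), with adjusted p from 1.5e-04 in DESeq2 to 0.325. Squamous epithelium genes, also listed after the data were seen, summed to 16.6, 34.0 and 4.61 CPM in Thy-Tet1+/+ and 4.79, 14.9 and 115 CPM in the labelled Thy-Tet1-/- libraries, and the follicular marker sum, nearly all thyroglobulin, was lower in the same libraries as Gpx2. The part of either in the Gpx2 difference was not tested.

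Gpx3, the secreted plasma enzyme, had 174, 178 and 153 CPM in Thy-Tet1+/+ and 334, 249 and 147 CPM in the labelled Thy-Tet1-/- libraries. Replicates 1 and 2 of the latter were above every wild-type library and replicate 3 below them all. The log2 fold change was 0.53 ± 0.28 (SE, edgeR adjusted p = 0.36), and it was 0.21 without labelled Thy-Tet1-/- replicate 1 and 0.79, meeting the limits, without replicate 3. It met them in 4 of the 16 other ways of processing. Adipocyte markers summed to 623, 301 and 178 CPM in Thy-Tet1+/+ and 2039, 951 and 438 CPM in the labelled Thy-Tet1-/- libraries, and their part in the Gpx3 values was not tested.

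The remaining glutathione peroxidases did not pass the limits. Gpx4, which reduces lipid peroxides in membranes, had 287 ± 42.3 against 275 ± 68.8 CPM, and Gpx1, the general cytosolic enzyme, 136 ± 29.0 against 145 ± 19.6 CPM. For the endoplasmic reticulum members, Gpx7 had 6.55 ± 1.53 against 4.74 ± 0.44 CPM and Gpx8 33.1 ± 9.79 against 35.2 ± 4.45 CPM. Without Thy-Tet1+/+ replicate 1, which held the lowest wild-type value of 4.86 CPM, Gpx7 met the limits at a log2 fold change of -0.64.

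Levels of different genes were compared per kilobase of the longest principal protein-coding transcript of GENCODE M21. On this scale Gpx4 made up 43.3% ± 3.33 of the summed glutathione peroxidase level in Thy-Tet1+/+ and 43.5% ± 1.63 in the labelled Thy-Tet1-/- libraries (SD, n = 3 each). The share of Gpx2 was 19.8%, 18.3% and 14.9% in the wild-type libraries and 5.31%, 4.34% and 11.9% in the others, so that the groups did not overlap. Its size rests on a length chosen after the levels were seen, and with the longest transcript of any kind the means were 6.87% and 2.62% in place of 17.6% and 7.20%. Gpx3 took 15.5% ± 2.43 and 22.7% ± 4.63. The summed level per kilobase was 688 ± 75.1 and 657 ± 143, a difference within the spread of the libraries.

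**Figure D2:**
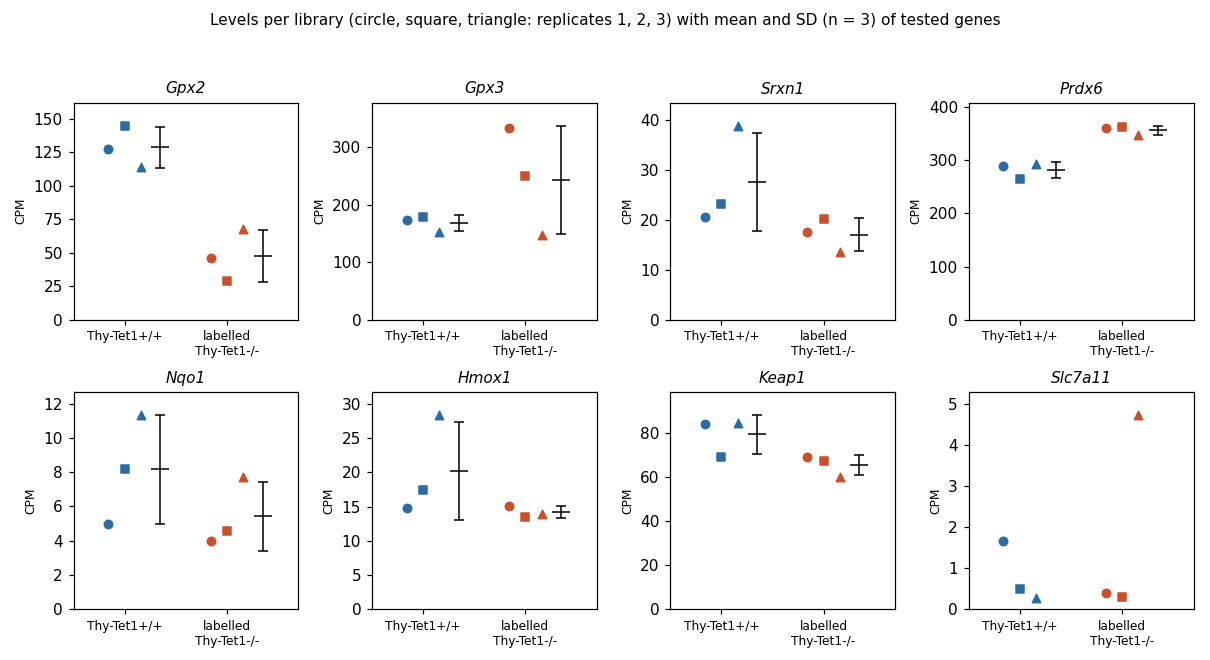
Levels in CPM of 8 genes in each library, the marker shape giving the replicate, with mean and SD (n = 3) beside the points of the 7 tested genes. Gpx2, Srxn1, Prdx6 and Keap1 have groups that do not overlap, Gpx3 is spread from 147 to 334 CPM among the labelled Thy-Tet1-/- libraries, and Slc7a11 reaches 4.73 CPM in labelled Thy-Tet1-/- replicate 3.

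Peroxiredoxins reduce peroxide through a cysteine, which in some of them sulfiredoxin can rescue once it is overoxidised. In this group of 7 genes, 5 had lower and 2 higher values (1 lower with epithelial scaling), with a median log2 fold change of -0.16. Srxn1 at chr2:152105524-152111376 (mm10), whose window holds the match printed above, had 20.6, 23.2 and 38.8 CPM in Thy-Tet1+/+ and 17.5, 20.2 and 13.5 CPM in the labelled Thy-Tet1-/- libraries. The groups did not overlap, but wild-type replicate 1 and labelled Thy-Tet1-/- replicate 2 were less than 1 CPM apart, and wild-type replicate 3 stood above the rest. Its log2 fold change was -0.70 ± 0.28 (SE, 1.62-fold lower, unadjusted p = 0.0417, edgeR adjusted p = 0.243). Without wild-type replicate 3 it was -0.36, without labelled Thy-Tet1-/- replicate 1 -0.74 and without replicate 3 -0.56, and in these 3 cases it no longer met the limits. It also missed them with library totals, epithelial scaling, the skeletal muscle covariate (-0.49), the replicate block and without both libraries that held thymocyte RNA, 8 of the 16 other ways of processing in all.

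Prdx6, which also reduces oxidised phospholipids, had 288, 264 and 292 CPM in Thy-Tet1+/+ and 360.4, 362 and 347 CPM in the labelled Thy-Tet1-/- libraries. All 3 of the latter were higher than every wild-type library, and the spread within each group was small. The difference was 1.27-fold (log2 fold change 0.34 ± 0.11 SE, unadjusted p = 0.0181, edgeR adjusted p = 0.179), under the limit on size, with adjusted p from 0.0046 in DESeq2 to 0.438 over the other ways of processing. It met the limits only with epithelial scaling (0.84 unshifted), where 30.2% of all genes did so. Prdx1 and Prdx2, the abundant cytosolic members, had 372 ± 96.8 against 326 ± 22.3 CPM and 152 ± 38.2 against 136 ± 20.2 CPM. Mitochondrial Prdx3 had 110.2 ± 23.7 against 101 ± 23.8 CPM. Prdx4, of the endoplasmic reticulum, had 41.9 ± 6.07 against 43.7 ± 1.99 CPM, and Prdx5, found in several organelles, 272 ± 61.6 against 239.8 ± 38.1 CPM. The 5 differences were smaller than the SD of at least 1 group.

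The thioredoxin system carries electrons from NADPH to peroxiredoxins and other disulfides. None of its 6 genes met the limits, 5 had lower values (0 with epithelial scaling), and log2 fold changes ran from -0.33 to 0.35 around a median of -0.12. Txnip, which binds and inhibits thioredoxin, had 1519.6, 1766 and 1065 CPM in Thy-Tet1+/+ and 1139, 1042 and 1285 CPM in the labelled Thy-Tet1-/- libraries, with overlap through wild-type replicate 3. Txnrd2, the mitochondrial reductase, had 9.02, 11.4 and 10.8 CPM against 14.6, 15.4 and 9.91 CPM, with replicate 3 of the latter inside the wild-type range. Cytosolic thioredoxin, Txn1, had 143, 304 and 346 CPM against 259, 213 and 246 CPM, so wild-type replicate 1 was lowest and the other wild-type libraries highest. For Txnrd1, the cytosolic reductase, the means were 112 ± 22.3 and 96.0 ± 8.71 CPM. The log2 fold changes of Txn2, mitochondrial thioredoxin, and Glrx, the glutaredoxin that removes glutathione from proteins, were -0.10 and -0.06.

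Superoxide dismutases turn superoxide into hydrogen peroxide and catalase splits that into water and oxygen. Sod1, the cytosolic enzyme, had 692 and 578 CPM per kilobase of its coding transcript, the highest of the 36 genes in both groups. Per kilobase of its longest transcript, a retained intron, it had 112 and 93.4 CPM. By longest transcripts Txnip was highest (513 and 409), and several others, among them Gpx4 and Txn1, were also above Sod1. The Sod1 values of 404, 457 and 469 CPM against 424, 369.6 and 319 CPM overlapped through labelled Thy-Tet1-/- replicate 1. Sod3, the extracellular enzyme, had 54.6, 63.4 and 116 CPM against 72.4, 60.6 and 21.5 CPM, and its log2 fold change of -0.60 came with an SE of 0.48 and an edgeR adjusted p of 0.542. Wild-type replicate 3 was the highest and labelled Thy-Tet1-/- replicate 3 the lowest of the 6. Mitochondrial Sod2 had 133 ± 17.0 against 132 ± 31.9 CPM and Cat 120.3 ± 19.2 against 131 ± 26.1 CPM.

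All 5 tested genes of glutathione supply and NADPH had lower values after TMM scaling, 4 with library totals and 0 with epithelial scaling, with a median log2 fold change of -0.29 between -0.31 and -0.18 after TMM. None met the limits in that fit. G6pdx, which makes NADPH at the entry of the pentose phosphate pathway, had 87.8, 98.9 and 103 CPM in Thy-Tet1+/+ and 90.5, 77.4 and 66.0 CPM in the labelled Thy-Tet1-/- libraries, with overlap between replicates 1. Gclm, the regulatory subunit of the enzyme that begins glutathione synthesis, had 34.9 ± 6.74 against 28.6 ± 3.74 CPM, its groups just separate, and Gclc, the catalytic subunit, 52.3 ± 8.07 against 46.1 ± 2.73 CPM. For Gsr, which reduces oxidised glutathione, the means were 37.2 ± 6.93 and 30.3 ± 2.21 CPM, and for Gss, which completes glutathione, the log2 fold change was -0.21.

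Slc7a11, the cystine importer, was counted 14, 9 and 5 times in Thy-Tet1+/+ and 7, 5 and 93 times in the labelled Thy-Tet1-/- libraries. Replicate 3 of the latter stood above the other 5. That library also had the highest thymocyte and squamous epithelium marker sums, 323 and 115 CPM. The part of these in the Slc7a11 count was not tested.

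Among the transferases and detoxifying enzymes, 3 genes had higher and 2 lower values, with a median log2 fold change of 0.05, and 0 met the limits. Nqo1, a quinone reductase often used to read NRF2 activity, had 4.98, 8.18 and 11.3 CPM in Thy-Tet1+/+ and 3.98, 4.56 and 7.72 CPM in the labelled Thy-Tet1-/- libraries. The groups overlapped (log2 fold change -0.60 ± 0.39 SE, edgeR adjusted p = 0.458). Hmox1, which breaks down heme, had 14.8, 17.4 and 28.4 CPM against 15.1, 13.4 and 13.9 CPM, with wild-type replicate 3 above the rest and a log2 fold change of -0.52 ± 0.25 (SE, edgeR adjusted p = 0.326). The glutathione transferase Gstm1 had 187 ± 13.7 against 215 ± 12 CPM without overlap (log2 fold change 0.21), and Gsta4 and Gstp1 both had a log2 fold change of 0.05.

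Nfe2l2 had 137, 179.9 and 158 CPM in Thy-Tet1+/+ and 175, 182 and 156 CPM in the labelled Thy-Tet1-/- libraries, with overlap. Keap1 had 84.1, 69.2 and 84.4 CPM against 69.0, 67.1 and 60.0 CPM, lower in all 3 labelled Thy-Tet1-/- libraries by a margin of less than 1 CPM at the nearest pair after TMM scaling, but with a positive fold change of 0.22 on the log2 scale under epithelial scaling (log2 fold change -0.28 ± 0.12 SE, edgeR adjusted p = 0.279). Of the 7 genes whose promoter window held the element core, 6 had lower values after TMM scaling or with library totals and 1 with epithelial scaling. After TMM scaling 1 met the limits, where 49.9% of all genes were lower and 9.2% met the limits, and the median log2 fold change was -0.26. Of the 22 tested genes with a window and no match, 14 had lower values after TMM scaling, 6 with library totals and 2 with epithelial scaling. After TMM scaling 1 met the limits, with a median of -0.08. The difference between these lists was not tested.

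**Figure D3:**
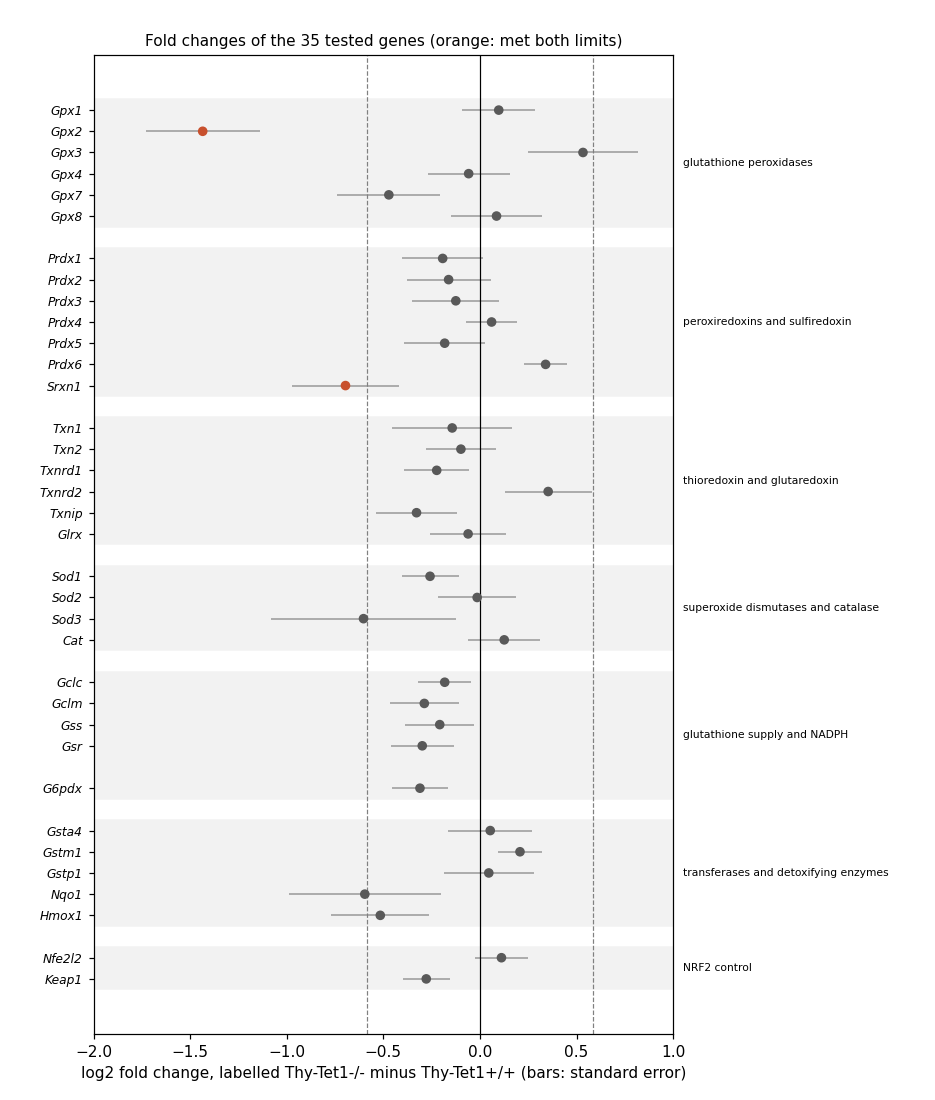
log2 fold change of labelled Thy-Tet1-/- against Thy-Tet1+/+ for the 35 tested genes, with standard errors from the edgeR fit as bars, dashed lines at the limit of 1.5-fold in either direction, and orange for the 2 genes that met both limits. Gpx2 at -1.43 lies apart from the other genes, which run from -0.70 to 0.53.

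Single libraries stood out among the 35 genes. Thy-Tet1+/+ replicate 3 was the highest of the 6 libraries for 18 of them, where it was so for 17.2% of all tested genes. Labelled Thy-Tet1-/- replicate 3 was lowest for 12 (17.2% of all genes) and highest for 0 (20.4%), and wild-type replicate 1 was lowest for 10 (23.1%). The median coefficient of variation was 19.5% in Thy-Tet1+/+ and 14.1% in the labelled Thy-Tet1-/- libraries for these genes, and 18.3% and 12.3% for all genes.

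Leaving out libraries changed which genes met the limits. Without Thy-Tet1+/+ replicate 1, 4 did so, Gpx2, Gpx7, Hmox1 and Srxn1, against 10% of all genes, and 10 had an unadjusted p under 0.05, against 20.7%. Without both libraries that held thymocyte RNA, a choice made after the data were seen, Gpx2, Gpx3, Gpx7 and Nqo1 met them (log2 fold change of Nqo1 -1.19), against 10.6% of all genes. With scaling to epithelial genes, 9 of the 35 met them, 8 upward, against 30.2% of all genes.

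**Figure D4:**
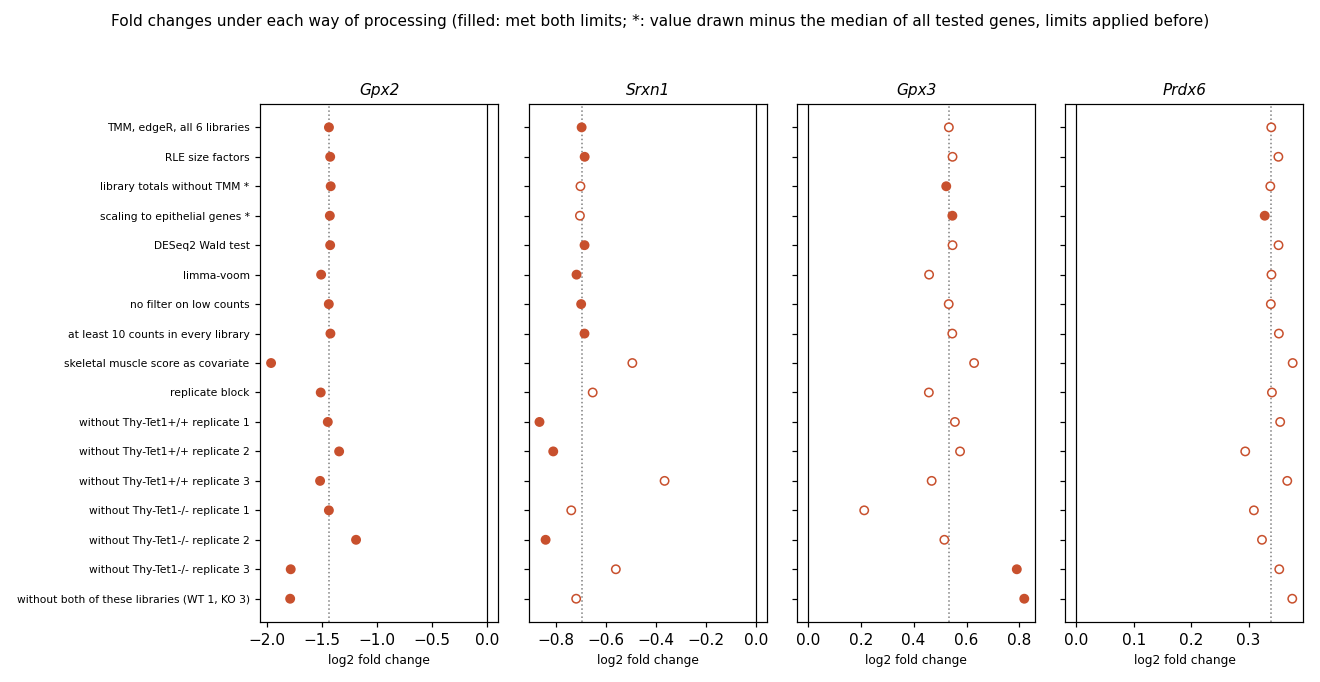
log2 fold changes of Gpx2, Srxn1, Gpx3 and Prdx6 with TMM scaling and edgeR and under 16 other ways of processing, one row each, filled where both limits were met, the dotted line marking the first of these. Gpx2 is filled in every row, from -1.96 to -1.19, while Srxn1 and Gpx3 change between filled and open. Prdx6 is filled only with epithelial scaling.

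Of 93 other redox genes, 89 were tested, 57 with lower and 32 with higher values after TMM scaling and a median log2 fold change of -0.08, which turned to 0.10 with library totals (31 lower) and 0.43 with epithelial scaling (5 lower). After TMM scaling 3 met the limits, or 3.37%, against 9.2% of all genes. Mgst2, a microsomal glutathione transferase, rose, with counts of 3, 5 and 5 in Thy-Tet1+/+ and 21, 14 and 120 in the labelled Thy-Tet1-/- libraries, a log2 fold change of 3.17 ± 0.90 (SE, edgeR adjusted p = 0.147). Labelled Thy-Tet1-/- replicate 3 was again far above the others, and without it the log2 fold change was 1.72. With so few wild-type counts, Mgst2 passed the low-count filter only through the labelled Thy-Tet1-/- libraries, so its p-value is no support for a rise. Asking for at least 10 counts in every library removed it. It met the limits in 13 of the 15 other ways that gave it a value, but not with limma-voom or the skeletal muscle covariate. Ggt1, which takes glutathione apart outside the cell, had 51.4 ± 10.2 against 34.2 ± 5.14 CPM, with a log2 fold change of -0.59 at the edge of the limit (edgeR adjusted p = 0.174). It met the limits in 3 of the 16 other ways of processing, and among single libraries left out it kept them only without Thy-Tet1+/+ replicate 2 (-0.74) or labelled Thy-Tet1-/- replicate 1 (-0.74), the smallest change being -0.46 without Thy-Tet1+/+ replicate 3. With epithelial scaling Ggt1 was at -0.099 (unshifted). Nxn, nucleoredoxin, fell from 63.2 ± 16.5 to 40.9 ± 5.47 CPM (edgeR adjusted p = 0.181) and met the limits in 10 of the 16 other ways. It missed them with library totals (-0.45 unshifted), epithelial scaling (-0.08 unshifted) and the skeletal muscle covariate (-0.61). It also missed them without Thy-Tet1+/+ replicate 2 (-0.40), without labelled Thy-Tet1-/- replicate 3 (-0.54) and without both libraries that held thymocyte RNA (-0.58). The 7 genes of hydrogen peroxide production, among them Duox1, and the 7 other NADPH sources had 0 that met the limits and 0 with an unadjusted p under 0.05.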

How the data were processed

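Gene counts were deposited by the authors as 1 table of whole-number read counts with 6 library columns, built on mm10 per the submitters' processing notes. The aligner and counter, and whether counting used strand, were not given in the sources used here. The labels' extract protocol speaks of retinas, although the samples are labelled thyroid. Of the columns, 0 held values of no labelled sample, and 27 symbols that a spreadsheet had turned into dates were restored. Counts were filtered with filterByExpr, TMM-scaled and tested with edgeR 4.0.16 in R 4.3.3 (glmQLFit and glmQLFTest, 3 libraries against 3, no covariate), with Benjamini-Hochberg adjustment over all 14143 tested genes. The limits on fold change and p follow the study's own. The code was tested on simulated data. The study gives 3 samples of glands per group. Whether each is 1 animal or a pool was not given in the sources used here, nor whether same-numbered libraries share a litter or day, so p-values measure the spread between these samples.

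The genes and lists were chosen with earlier results of these data known. All 36 genes are named, and of the other redox genes those that met the limits, at most 4 a list. Duox1, Bach1, Mafg, Sqstm1, Osgin1 and Gstt1 are also named and did not meet them in the TMM fit. Alternatives were RLE size factors, library totals, scaling to 10 epithelial genes, DESeq2 1.42.0, limma 3.58.1 (voom), no low-count filter, at least 10 counts in every library, a skeletal muscle score as covariate, a replicate block, leaving out each library and leaving out both libraries with thymocyte RNA. Levels per kilobase first used the longest transcript of any kind. After the levels were seen this was changed to the longest principal protein-coding transcript, since the longest models of Gpx2 and Sod1 were retained introns, and the change shortened 10 of the 36 lengths. Exons on the opposite strand overlap those of G6pdx, Gss, Keap1, Prdx2, Prdx5, Txnip, Txnrd2 and Gclm. Gm6061, on the same strand, also overlaps 3.88% of the Gclm exons. Near-identical copies of Gstp1 and Gstm1 may share reads, and the counts of all these genes are uncertain.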

Additional observations from a re-analysis of the deposited data

How the results depend on the processing

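The 1301 genes that met the limits became 4278 with scaling to epithelial genes, where 98.5% were higher against 60.2% in the TMM fit and 86.1% of 1709 with library totals. These scalings moved the median of all genes by 0.51 and 0.19 (log2), and the values drawn for them are relative to that. Of the 10 scaling genes 8 were themselves lower. The count of the 35 genes that met the limits was 9 with epithelial scaling, 1 with the muscle covariate, 4 without both thymocyte-bearing libraries and 1 to 4 when single libraries were left out. For the 89 tested other redox genes it was 7 with library totals, 25 with epithelial scaling, 5 without both libraries and 3 to 6 with single libraries left out. Among all 14143 tested genes it was 1709 with library totals, 4278 with epithelial scaling and 1057 with the muscle covariate. It was 1503 of 14223 without both libraries, and 1074 to 1502 of 14284 to 14418 with single libraries left out.

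Same-numbered libraries did not vary together (r = -0.167, -0.372 and -0.193). From 3 libraries a group it cannot be told whether they shared a litter or day. With a replicate block, 1 of the 35 genes met the limits, against 1145 of all 14143 tested genes: Gpx2 at -1.51, while Srxn1 was at -0.65.

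Signs turned with the muscle covariate for Prdx3 (0.025), Txn2 (0.037) and Sod2 (0.16), and without both libraries for Gpx8 (-0.069), Prdx4 (-0.016) and Sod2 (0.27). With single libraries left out, log2 fold changes spanned 0 for Gpx1 (-0.062 to 0.24), Gpx4 (-0.29 to 0.093), Gpx8 (-0.13 to 0.28), Prdx3 (-0.29 to 0.067), Prdx4 (-0.048 to 0.16), Txn1 (-0.44 to 0.097), Txn2 (-0.19 to 0.074), Glrx (-0.19 to 0.13), Sod2 (-0.18 to 0.17), Cat (-0.057 to 0.26), Gsta4 (-0.12 to 0.21) and Gstp1 (-0.16 to 0.25). Causes were not tested. By the longest transcript of any kind, the Gpx2 share of the glutathione peroxidases was 6.87% ± 1.10 and 2.62% ± 1.59 in place of 17.6% ± 2.52 and 7.20% ± 4.14.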

Other observations

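Of 22 NRF2 partners and targets, 4 had an unadjusted p under 0.05 in edgeR, against 18.9% of all genes, and 0 met the limits after TMM scaling. They were Bach1, Mafg and the targets Sqstm1 (log2 fold change -0.29) and Osgin1 (-0.58), and the values of the first pair are given here, a choice made after they were seen. After TMM scaling, 5 of the 22 had higher and 17 lower values, where 49.9% of all genes were lower. Of the 89 other redox genes tested, 12 had an unadjusted edgeR p under 0.05. Gstt1, of another list, had a smaller one than either of the pair (7.3e-04, log2 fold change -0.58). Bach1, a repressor that competes with NRF2 for antioxidant response elements, had 134, 128 and 127 CPM in Thy-Tet1+/+ and 91.2, 86.5 and 104 CPM in the labelled Thy-Tet1-/- libraries, lower in all 3 (log2 fold change -0.47 ± 0.11 SE, edgeR adjusted p = 0.112). Mafg, a small MAF protein that both NRF2 and BACH1 need to bind DNA, had 95.6, 91.2 and 120 CPM against 150.0, 126 and 148 CPM, higher in all 3 (log2 fold change 0.46 ± 0.15 SE, edgeR adjusted p = 0.172). With epithelial scaling Bach1 was at 0.037 (unshifted), so its direction rests on the scaling. Bach1 met the limits in 0 of the 16 other ways of processing. Mafg missed them in 13 of the 16 and met them in 3, with library totals, with epithelial scaling and without Thy-Tet1+/+ replicate 3.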
